A study of Mus musculus with 6 samples.

Results

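The genes described here make up the NRF2, glutathione and antioxidant system of mouse hepatocellular carcinoma cells. They were a list of 41 gene symbols grouped by function, with no threshold on their signal. Of these, 38 had at least 1 probe set whose annotation named that gene alone, out of 18193 genes measured in the same way, and each gene was read from its probe set with the highest mean signal. Prdx1, Prdx6 and G6pdx were not analysed here, because no probe set named them alone. Members were taken in 8 roles, from the regulators to the efflux pumps.

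Expression was compared between 3 related lines on 6 Affymetrix arrays, 2 per line, all grown in DMEM with serum. M1 and I1 are subpopulations of BL185 that were selected because they migrate, and BL185 is the parent line they came from. The titles name M1 and I1 as subclone lines, and no unselected subclone was measured, so selection and subcloning cannot be told apart. Nothing in the labels ties the paired arrays to independent cultures, and p-values therefore describe array-to-array spread that could be purely technical. Every value below is a log2 signal or a difference of log2 signals, and none is a level that can be set against another gene's. In bulk RNA, fewer cells of a type and less RNA per cell cannot be told apart.

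NRF2, encoded by Nfe2l2, is a transcription factor that KEAP1 holds at low levels by presenting it for ubiquitination. Electrophiles and oxidants modify KEAP1, NRF2 accumulates, and with a small MAF partner it binds antioxidant response elements near genes for glutathione synthesis, thioredoxin recycling, NADPH supply and export of conjugates. In liver these enzymes clear xenobiotics and peroxides, and in liver cancers the pathway is often active.

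The core of the element, TGACNNNGC, was looked for on both strands of the promoters of the members, from 250 bases before to 50 bases after each start in RefSeq (build GRCm38.p6). It occurred in 11 of the 32 measured members with a promoter entry, and in 14% of all 27025 genes with one. The windows below are shown because they belong to members whose values follow, and capitals mark the motif as it lies on the gene's strand, which reads GCNNNGTCA where the match is on the other strand. Abcc4 has 2 starts with a match each. The Me1 match overlaps the AP-1 motif TGANTCA, and the other matches shown do not.
Nfe2l2 (chr2:75704885-75704913, minus strand): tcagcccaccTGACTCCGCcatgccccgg
Gclm (chr3:122245413-122245441, plus strand): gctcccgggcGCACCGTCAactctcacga
Gstm5 (chr3:107895802-107895830, plus strand): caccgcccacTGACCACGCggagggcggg
Txnrd1 (chr10:82859104-82859132, plus strand): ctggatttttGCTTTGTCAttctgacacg
Srxn1 (chr2:152105542-152105570, plus strand): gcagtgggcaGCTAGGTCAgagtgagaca
Me1 (chr9:86695902-86695930, minus strand): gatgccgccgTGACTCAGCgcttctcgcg
Pgd (chr4:149166061-149166089, minus strand): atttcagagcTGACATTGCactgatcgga
Abcc4, first start (chr14:118706226-118706254, minus strand): gccccgagagGCGGGGTCAgggcgggccg
Abcc4, second start (chr14:118676936-118676964, minus strand): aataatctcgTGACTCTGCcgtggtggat
A match is a string of letters in a promoter and was not measured as a binding site. The Pgd and Srxn1 matches begin 4 and 29 bases into the transcript, and the others lie upstream of the start or across it. Gsta3, Mgst1 and Sod1 also held the motif.

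The M1 arrays stood apart from each other. They correlated at r = 0.910 across probe sets, which are not independent replicates, against 0.994 for I1 and 0.997 for BL185, and M1 replicate 1 had the narrowest spread of signal (SD 1.62 over probe sets, against 1.83 to 1.97 on the other arrays). The 18S control probe set read 12.50 on that array and 10.11 to 11.51 on the other 5. The M1 arrays are therefore printed separately, and an M1 difference on a gene's brightest probe set is also given without that array where this moved it by over 1.5 times. The labelled cell type was checked against 9 hepatocyte markers. Over all arrays Hnf4a read 11.94 to 13.34, Krt8 14.94 to 15.23 and Krt18 14.78 to 14.96, whereas Alb, the main secretory product of hepatocytes, read 7.53 to 8.43, close to the array medians of 7.87 to 8.11. Apoa1, Apoa2, Ttr and Afp read 7.14 to 9.92, with higher means in both selected lines than in BL185 and no call. Their M1 differences without M1 replicate 1 were 0.21 for Apoa1, 0.30 for Apoa2, 0.15 for Ttr and -0.12 for Afp. Fgb, a fibrinogen chain, read 7.47 and 7.93 in M1, 7.44 and 7.66 in I1 and 9.51 and 9.46 in BL185, and it fell in M1 (-1.78, limma adjusted p = 0.0469) but was not called in I1 (-1.93, limma adjusted p = 0.0501). Of 6 leukocyte markers, Cd68 and Cd53 fell in M1 and Cd68 in I1. Ptprc, Lyz2, Csf1r and Tyrobp had higher means in both selected lines with no call. Without M1 replicate 1 the M1 differences of these 4 genes were 0.02, 0.20, -0.13 and -0.09. The median over the list was 0.48 in M1 (-0.11 without M1 replicate 1) and 0.35 in I1. The summed linear signal of the 6 was 1607 to 3216 in M1, 1962 to 2303 in I1 and 3484 to 3742 in BL185. The part of these markers in the results below was not tested.

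The members did not move as a block. With both M1 arrays, limma called 0 of the 38 members at an adjusted p of 0.05 in M1, where 0.879% of all genes were called (0.275% higher and 0.605% lower). It called 0 in I1 as well, where 0.511% of all genes were called, and both comparisons use the same BL185 arrays. The 3 lines share 1 spread per gene in this fit, so the I1 errors also carry the spread between the M1 arrays. The replicate SD over genes was 0.65 in M1, 0.16 in I1 and 0.10 in BL185. With only the I1 and BL185 arrays, limma called 21 of the 38 members and 46.6% of all genes. At an unadjusted p under 0.05 with all 6 arrays, 4 members were higher and 8 lower in M1, and 8 were higher and 6 lower in I1. Of all 18193 genes, 714 were higher and 2084 lower in M1 at that threshold, and 760 higher and 1359 lower in I1. The median member difference from BL185 was -0.32 in M1, against 0.07 over all genes, and 0.04 in I1, against 0.06 over all genes. The M1 value followed the array: it was -0.53 on M1 replicate 1 and -0.06 on M1 replicate 2.

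**Figure D1:**
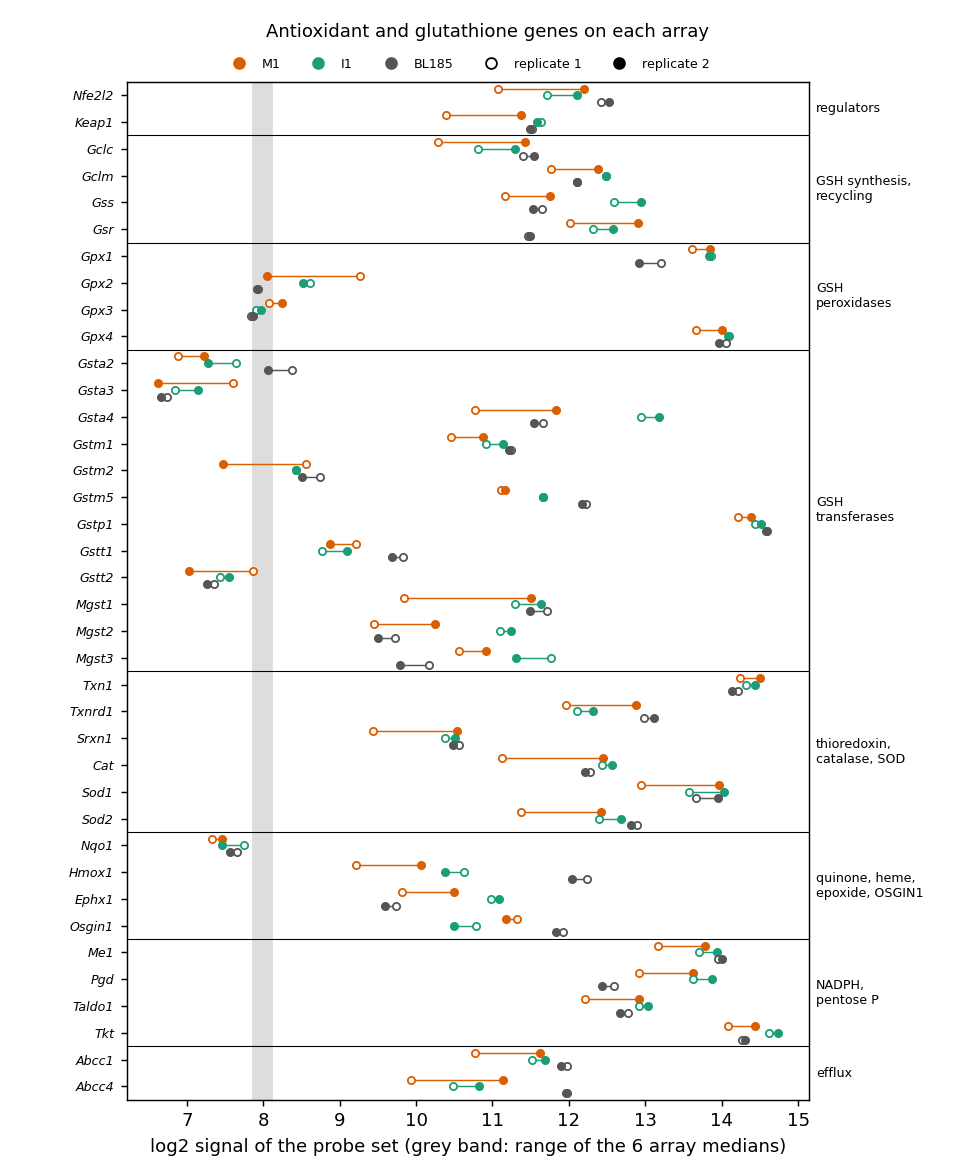
Log2 signal of the 38 measured members on each array, grouped by role, with M1, I1 and BL185 marked by colour and replicate by symbol. Most members sit lower on M1 replicate 1 than on M1 replicate 2 (32 of 38), and the Hmox1 points of both selected lines lie below the BL185 points.

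Much of the M1 shift went with brightness. Among all genes with a BL185 mean of 10 to 12, the median on M1 replicate 1 was -1.06 relative to BL185, and the 11 members in that class had a median of -1.09. In the class from 12 to 14 the values were -0.95 for all genes and -0.97 for 12 members, and below 8 they were 0.41 for all genes and 0.55 for 5 members. On M1 replicate 2 the same classes of all genes stayed between -0.11 and 0.06. The I1 arrays had a smaller shift of this kind. Their medians of all genes were -0.36 and -0.21 from 10 to 12, and -0.38 and -0.17 from 12 to 14. The member medians there were -0.31 and -0.02, and -0.25 and 0.10. The members are mostly bright, and the shift of the group on M1 replicate 1 was thus close to that of other genes of like signal. With the median of genes of like signal subtracted, in 20 classes by mean signal, the member median was -0.10 in M1 and 0.06 in I1.

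**Figure D2:**
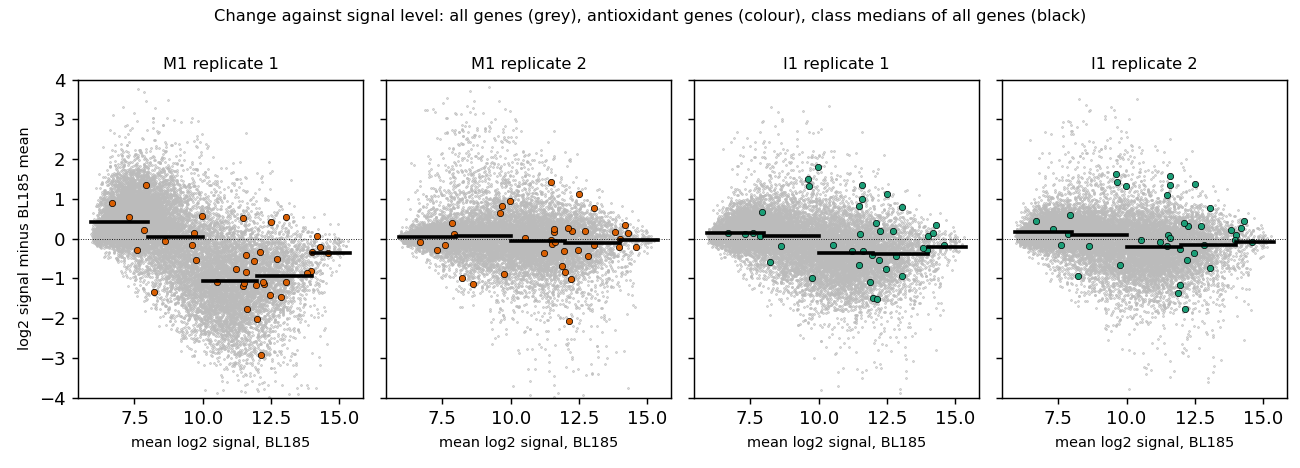
Difference of each array from the BL185 mean (log2, vertical axis) against the BL185 mean signal (log2, horizontal axis), 1 panel per M1 or I1 array, with members as coloured points over all 18193 genes in grey, the median of all genes in each signal class as a black bar, and points beyond the vertical limits not drawn. Bright genes lie low on M1 replicate 1 and near 0 on M1 replicate 2, and the 11 members with a BL185 mean of 10 to 12 have a median of -1.09 on the first of these arrays.

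With M1 replicate 1 set aside, M1 rests on 1 array, whose spread was taken from I1 and BL185. limma then called 13 members in M1, 6 higher and 7 lower, which is 34.2% of the members against 24.0% of all genes (11.7% higher and 12.3% lower). In I1 it called 21 members, 11 higher and 10 lower, or 55.3% against 46.6% of all genes (22.5% higher and 24.1% lower). Past 2-fold as well, 2 members were higher and 3 lower in M1, where 3.79% of all genes were higher and 3.26% lower. In I1, 6 were higher and 3 lower, where 2.45% were higher and 5.82% lower. Quantile normalization of all 6 arrays, which gives them a single distribution, led to calls for 3 members higher and 2 lower in M1, against 3.48% and 2.98% of all genes. In I1 it led to calls for 7 higher and 2 lower, against 3.34% and 2.05% of all genes. As deposited, 31.2% of the genes called in M1 were higher, and after quantile normalization 53.8% were; in I1 the shares were 37.6% and 62.0%.

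**Figure D3:**
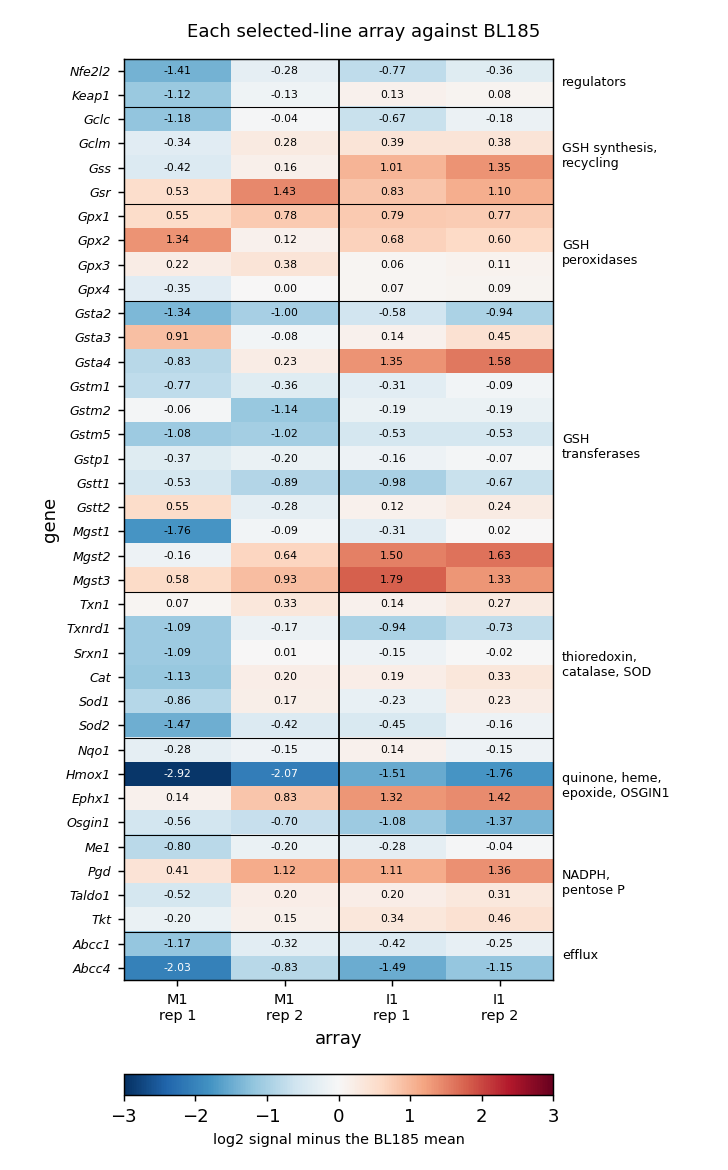
Difference from the BL185 mean (log2) of each of the 38 members on each M1 and I1 array, as the colour of a cell, with members in rows by role. Pgd, Gsr and Gpx1 lie above 0 and Hmox1, Abcc4 and Gstm5 below 0 on all 4 arrays.

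The regulators read low or level. Nfe2l2, the gene of NRF2 itself, read 11.07 and 12.20 on the M1 arrays, 11.71 and 12.11 on the I1 arrays and 12.42 and 12.53 on the BL185 arrays. All 4 selected-line arrays lay below both parental arrays, by -0.84 ± 0.40 in M1 (SE, limma adjusted p = 0.393) and -0.57 ± 0.40 in I1 (limma adjusted p = 0.67), and neither passed the test. Without M1 replicate 1 the difference was -0.28 in M1, not called, and -0.57 in I1, called at a limma adjusted p of 0.00385. Keap1, the adaptor that hands NRF2 to a ubiquitin ligase, read 10.39 and 11.37 in M1, 11.63 and 11.58 in I1 and 11.52 and 11.49 in BL185. A dimmer Keap1 probe set differed from this one in I1, with -1.05 in both selected lines, so the direction of Keap1 depends on the probe set.

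Glutathione synthesis and recycling showed its clearest values at 2 enzymes. Gss, glutathione synthetase, which adds glycine in the last step, read 11.17 and 11.75 in M1, 12.59 and 12.94 in I1 and 11.65 and 11.53 in BL185. Both I1 arrays lay above every other array, at 2.26 times the BL185 signal (log2 1.18 ± 0.26, limma adjusted p = 0.177); after quantile normalization the I1 difference was 1.39 and was called (limma adjusted p = 0.0168). Gsr, glutathione reductase, which turns the oxidised dimer back into glutathione, read 12.01 and 12.91 in M1, 12.31 and 12.58 in I1 and 11.47 and 11.49 in BL185. A dimmer Gsr probe set differed from BL185 by less, with 0.63 in M1 and 0.31 in I1. On the brightest probe set Gsr was higher on all 4 selected-line arrays, by 0.98 ± 0.33 in M1 (limma adjusted p = 0.272) and 0.97 ± 0.33 in I1 (limma adjusted p = 0.351). It was called in both lines after quantile normalization (limma adjusted p = 0.00943 in M1 and 0.0173 in I1) and without M1 replicate 1 (limma adjusted p = 6.24e-06 in M1 and 2.23e-05 in I1).

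The subunits of the enzyme that sets the pace of glutathione synthesis differed in direction in I1. Gclc, its catalytic subunit, read 10.29 and 11.43 in M1, 10.81 and 11.30 in I1 and 11.40 and 11.55 in BL185. Gclm, its modifier subunit, read 11.76 and 12.38 in M1, 12.48 and 12.48 in I1 and 12.10 and 12.10 in BL185. Gclc was lower in I1 and Gclm higher in I1 than in BL185 on every array, yet neither passed the test with all arrays, and a second Gclm probe set read -0.44 in I1.

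Among the peroxidases, Gpx1, the cytosolic enzyme that reduces hydrogen peroxide with glutathione, read 13.61 and 13.85 in M1, 13.86 and 13.83 in I1 and 13.20 and 12.92 in BL185. It was higher on all 4 selected-line arrays, by 0.67 ± 0.19 in M1 (limma adjusted p = 0.224) and 0.78 ± 0.19 in I1 (limma adjusted p = 0.205). Gpx2, an epithelial form, read 9.27 and 8.05 in M1, 8.61 and 8.52 in I1 and 7.92 and 7.93 in BL185, with most of the M1 difference on replicate 1. Gpx3, the secreted plasma form, read 7.84 to 8.24 on all arrays, close to the array medians. Gpx4, which clears lipid hydroperoxides and guards against ferroptosis, differed by -0.17 in M1 (0.00 without M1 replicate 1) and 0.08 in I1.

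The 12 glutathione transferases split. In I1 5 had a higher mean than BL185 and 7 a lower one, with a range from -0.83 to 1.56. The 3 highest in I1 were 2 microsomal enzymes and Gsta4, which conjugates the lipid peroxidation product 4-hydroxynonenal. Gsta4 read 10.77 and 11.83 in M1, 12.95 and 13.18 in I1 and 11.66 and 11.54 in BL185. Its I1 signal was 2.76 times that of BL185 (log2 1.47 ± 0.37, limma adjusted p = 0.213), and both I1 arrays stood above all others. Mgst2, a microsomal transferase that can also make leukotriene C4, read 9.45 and 10.25 in M1, 11.10 and 11.24 in I1 and 9.72 and 9.50 in BL185. Mgst3 read 10.56 and 10.92 in M1, 11.77 and 11.31 in I1 and 10.17 and 9.79 in BL185. Each was 2.95 times higher in I1 than in BL185, with limma adjusted p = 0.137 for Mgst2 and 0.105 for Mgst3. A dimmer Mgst3 probe set (mean 7.94) differed by less, with 0.23 in I1. After quantile normalization the I1 differences of these 3 transferases were called, with limma adjusted p = 0.0098 for Gsta4, 0.00877 for Mgst2 and 0.0427 for Mgst3.

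Other cytosolic transferases differed in direction, with lower values at Gstm5, Gsta2 and Gstt1 and higher means at Gsta3 (0.41 in M1, -0.08 without M1 replicate 1, and 0.30 in I1). Gstm5, a mu-class enzyme, read 11.11 and 11.17 in M1, 11.66 and 11.66 in I1 and 12.22 and 12.17 in BL185. The lines did not overlap, and the M1 arrays were close to each other here, with -1.05 ± 0.16 in M1 (limma adjusted p = 0.0678) and -0.53 ± 0.16 in I1 (limma adjusted p = 0.289). Its M1 difference shrank to -0.64 after quantile normalization (limma adjusted p = 0.282). Gsta2, an alpha-class enzyme, read 6.88 and 7.23 in M1, 7.65 and 7.28 in I1 and 8.38 and 8.06 in BL185, near or below the array medians in M1 and I1. Gstt1, a theta-class enzyme, read 9.22 and 8.87 in M1, 8.77 and 9.09 in I1 and 9.83 and 9.68 in BL185. Gsta2 and Gstt1 were lower on all 4 selected-line arrays than on either parental one, and both were called in each line without M1 replicate 1. Gstm2 read 8.56 and 7.48 in M1, 8.43 and 8.43 in I1 and 8.74 and 8.51 in BL185, so its M1 value rests on replicate 2. Genes of these families are close in sequence, and a probe set may take up signal from relatives.

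The 6 thioredoxin, catalase and superoxide dismutase genes had no member past the test in either line. Txnrd1, the reductase that recharges thioredoxin, read 11.96 and 12.88 in M1, 12.10 and 12.32 in I1 and 12.98 and 13.12 in BL185. Its I1 difference was -0.84 (limma adjusted p = 0.435), and it was -0.72 after quantile normalization (limma adjusted p = 0.0539). Dimmer Txnrd1 probe sets read -0.13 and 0.04 in I1. Sod2, the manganese enzyme of mitochondria, read 11.37 and 12.42 in M1, 12.40 and 12.68 in I1 and 12.89 and 12.81 in BL185. Srxn1, which repairs overoxidised peroxiredoxins, read 9.44 and 10.54 in M1, 10.38 and 10.51 in I1 and 10.56 and 10.49 in BL185, and its M1 difference came from replicate 1. Txn1, thioredoxin itself, and Cat, catalase, differed by at most 0.26 in size in I1 on their brightest probe sets. A second Txn1 probe set read 1.00 in M1 and 0.89 in I1, and a second Cat probe set -0.81 in M1 and -0.21 in I1. Sod1, the copper-zinc enzyme, had a difference of -0.00 in I1 on its brightest probe set, whereas another of its probe sets read -1.71 in M1 and -1.73 in I1.

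Hmox1, heme oxygenase 1, which breaks heme down to biliverdin, iron and carbon monoxide and is a standard stress-response gene, had the widest difference from BL185 of the 38 members in each selected line as deposited. In I1 this order did not hold after quantile normalization, where Mgst3, Mgst2, Gsta4, Ephx1 and Pgd differed by more. Gss was then level with Hmox1 in size, at 1.39. Hmox1 read 9.22 and 10.07 on the M1 arrays, 10.63 and 10.38 on the I1 arrays and 12.24 and 12.04 on the BL185 arrays. All 4 selected-line arrays lay more than 1 log2 unit below both parental ones. The M1 signal was 5.65-fold lower (log2 -2.50 ± 0.32, limma adjusted p = 0.0502) and the I1 signal 3.11-fold lower (log2 -1.64 ± 0.32, limma adjusted p = 0.142). After quantile normalization Hmox1 was called in both lines, at -2.21 in M1 (limma adjusted p = 0.00943) and -1.39 in I1 (limma adjusted p = 0.0323). Without M1 replicate 1 it was called at -2.07 in M1 (limma adjusted p = 2.29e-07) and -1.64 in I1 (limma adjusted p = 2.4e-07).

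**Figure D4:**
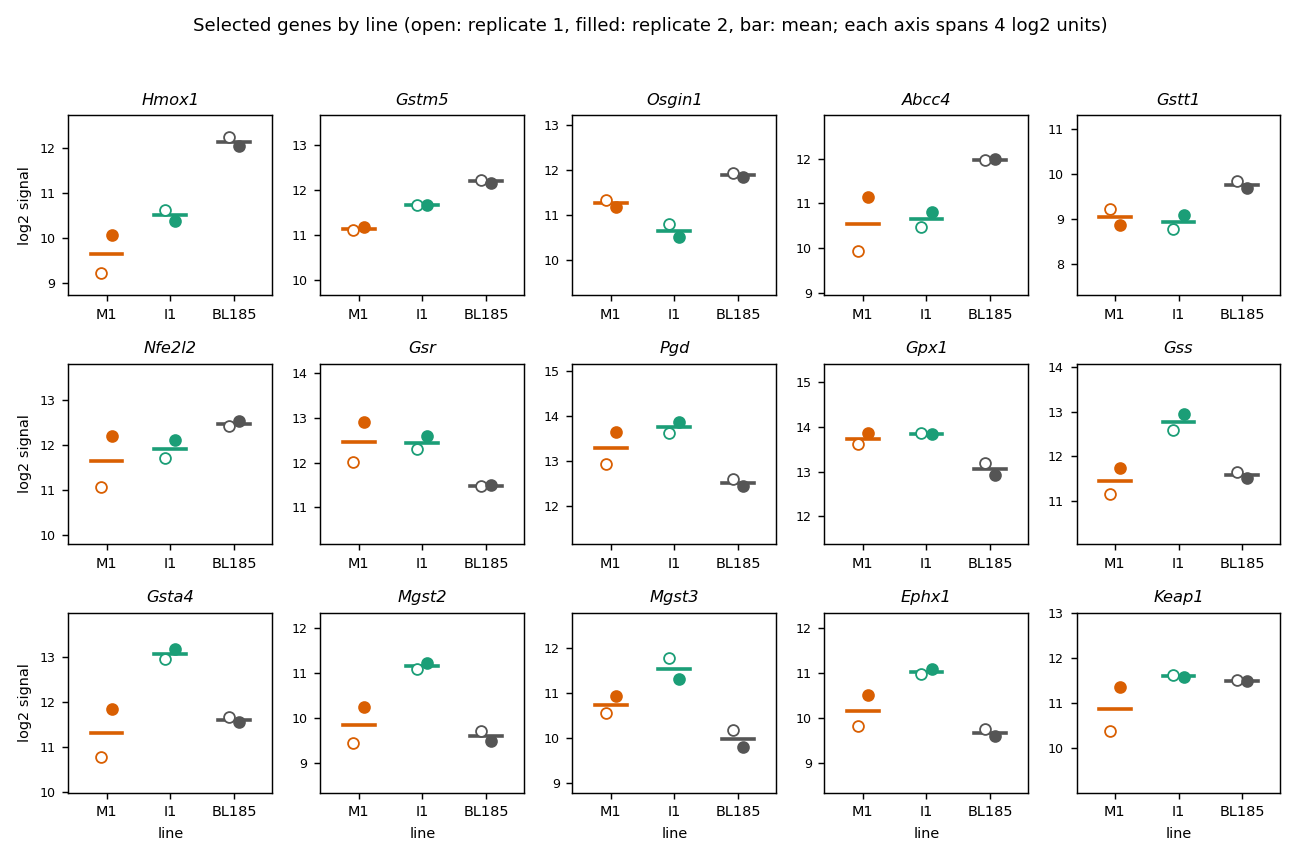
Log2 signal on each array (points) and line mean (bars) for selected members, 1 panel per gene, with M1, I1 and BL185 from left to right. Hmox1 is lowest in M1 and highest in BL185, and Mgst2 and Gsta4 are highest in I1.

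Other stress and detoxification members went in different directions. Ephx1, microsomal epoxide hydrolase, read 9.81 and 10.50 in M1, 10.98 and 11.08 in I1 and 9.74 and 9.59 in BL185. It was 2.58 times higher in I1 than in BL185 (log2 1.37 ± 0.27, limma adjusted p = 0.144), and after quantile normalization it was called in I1 at 1.57 (limma adjusted p = 0.00877) and in M1 at 0.86 (limma adjusted p = 0.0228). Osgin1, an oxidative stress-induced growth inhibitor, read 11.32 and 11.18 in M1, 10.79 and 10.50 in I1 and 11.92 and 11.83 in BL185. Its 3 lines were ordered without overlap, lowest in I1, with -0.63 in M1 and -1.23 ± 0.19 in I1 (limma adjusted p = 0.09). After quantile normalization the M1 value was -0.21 and the I1 value -0.98 (limma adjusted p = 0.233 in I1). Nqo1, the quinone reductase most used as an NRF2 readout, read 7.33 and 7.46 in M1, 7.75 and 7.46 in I1 and 7.66 and 7.56 in BL185. Those signals lie below the array medians, so Nqo1 was not distinguishable from dim probe sets in any line.

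NADPH supply was led by Pgd, phosphogluconate dehydrogenase of the oxidative pentose phosphate pathway. Pgd read 12.92 and 13.63 in M1, 13.62 and 13.87 in I1 and 12.59 and 12.43 in BL185. It was higher on all 4 selected-line arrays, by 0.76 ± 0.29 in M1 and by 1.24 ± 0.29 in I1 (limma adjusted p = 0.185), and its 3 other probe sets had the same direction. After quantile normalization Pgd was called in M1 at 1.08 (limma adjusted p = 0.0186) and in I1 at 1.41 (limma adjusted p = 0.0125). Tkt and Taldo1, of the non-oxidative branch, had I1 differences of 0.40 and 0.25, and Me1, malic enzyme 1, had one of -0.16.

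Both efflux pumps read lower. Abcc4, which exports conjugates and cyclic nucleotides, read 9.94 and 11.14 in M1, 10.48 and 10.82 in I1 and 11.96 and 11.98 in BL185. No selected-line array reached the parental ones. The differences were -1.43 ± 0.42 in M1 (limma adjusted p = 0.222; -0.83 and called without M1 replicate 1) and -1.32 ± 0.42 in I1 (limma adjusted p = 0.307). After quantile normalization Abcc4 was called at -1.02 in M1 (limma adjusted p = 0.0438) and -1.07 in I1 (limma adjusted p = 0.0429). Abcc1, an exporter of glutathione conjugates, had differences of -0.74 in M1 (-0.32 without M1 replicate 1) and -0.33 in I1, with -1.39 and -1.65 on a second probe set.

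Counted by arrays, 8 members were higher and 15 lower in M1 than in BL185 without overlap, against 26.2% and 25.7% of all genes. In I1, 19 were higher and 15 lower, against 42.6% and 33.5% of all genes. These shares are thus high over all genes as well, and the count of members higher in I1 was near its background. The 13 members not given by array (Gpx4, Gsta3, Gstm1, Gstp1, Gstt2, Mgst1, Txn1, Cat, Sod1, Me1, Taldo1, Tkt and Abcc1) ranged from -0.93 to 0.41 in M1 (-0.36 to 0.33 without M1 replicate 1) and from -0.33 to 0.40 in I1.

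I1 and M1 were also compared directly, with limma calling 0 of the 38 members and 0 of all genes. At an unadjusted p under 0.05, 7 members were higher and 1 lower in I1 than in M1, as were 333 and 76 of all genes. After quantile normalization 0 members and 0.0330% of all genes were called. Without overlap between arrays, 15 members were higher and 2 lower in I1, against 8.13% and 7.96% of all genes. Those shares are over genes of every signal level, whereas the members are mostly bright. The median member difference was 0.39, against -0.00 over all genes, and 0.20 with the median of genes of like signal subtracted. Without M1 replicate 1 the member median was 0.10, against -0.03 over all genes. Gsta4 differed most, at 3.40 times the M1 signal (log2 1.76), followed by Mgst2 at 2.50 times and Gss at 2.48 times. Both I1 arrays lay above both M1 arrays for these 3 genes. For Gsta4 cyclic loess normalization gave a call (1.54, limma adjusted p = 0.0465), where 0.280% of all genes were called. Without M1 replicate 1, 9 members were called higher and 4 lower in I1, against 7.20% and 13.4% of all genes, and past 2-fold 2 were higher and 0 lower, against 0.786% and 1.24%; Gsta4, Gss, Gstm2, Mgst2, Mgst3, Gstm5, Ephx1, Gpx2 and Gstt2 were higher, and Gsr, Txnrd1, Osgin1 and Abcc4 lower.

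The wider pathway was covered by 98 further genes of 104 listed, and 3 of them fell in M1 and 1 in I1 by the test with all arrays, where 0.605% and 0.319% of all genes were called lower. Abcb1a, a multidrug efflux pump, read 8.46 and 9.17 in M1, 9.77 and 10.27 in I1 and 12.43 and 12.48 in BL185, a fall of -3.64 ± 0.31 in M1 (limma adjusted p = 0.0235), with -2.43 ± 0.31 in I1 not called (limma adjusted p = 0.0601). Gsk3b, a kinase that can mark NRF2 for degradation apart from KEAP1, read 9.71 and 10.44 in M1, 11.00 and 10.67 in I1 and 12.40 and 12.48 in BL185 and fell by 2.37 ± 0.30 in M1 (limma adjusted p = 0.0466). Gsto2, an omega-class transferase that recycles dehydroascorbate, read 7.69 and 7.79 in M1, 7.48 and 7.63 in I1 and 9.89 and 9.54 in BL185. It passed the test in both lines, with -1.97 ± 0.20 in M1 (limma adjusted p = 0.0289) and -2.16 ± 0.20 in I1 (limma adjusted p = 0.037). The Gsk3b call was lost when a gene's probe sets were averaged, at -1.20 (limma adjusted p = 0.137), and with eBayes trend and robust (limma adjusted p = 0.0601). The Gsto2 calls were lost with the replicate number as a block (limma adjusted p = 0.0755 in M1 and 0.0905 in I1), and the M1 one also with array weights (limma adjusted p = 0.0729). All 3 M1 calls were lost with only the M1 and BL185 arrays, where no gene was called (limma adjusted p = 0.24 for Gsk3b, 0.202 for Gsto2 and 0.153 for Abcb1a). All 4 calls were lost without either BL185 array (limma adjusted p from 0.431 to 0.643). Without M1 replicate 1, 19 of the 98 were called higher and 33 lower in M1, against 11.7% and 12.3% of all genes, and 25 higher and 42 lower in I1, against 22.5% and 24.1%. Between the selected lines 0 were called with all arrays, and 11 higher and 5 lower in I1 than in M1 without that array, against 7.20% and 13.4% of all genes. Over the 98 genes the median difference was -0.36 in M1, -0.10 without M1 replicate 1, and -0.16 in I1, against 0.07, 0.03 and 0.06 over all genes. Those background values take in genes of every signal level. The 98 genes and the lists within them were not set against genes of like signal.

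Of the 12 further NRF2 control genes, 8 had a lower mean in each selected line than in BL185, with 1 call, for Gsk3b in M1. Sqstm1, the p62 adaptor that can sequester KEAP1, read 12.21 and 12.78 in M1, 12.53 and 12.81 in I1 and 14.40 and 14.52 in BL185. The difference was -1.96 ± 0.25 in M1 (limma adjusted p = 0.0505) and -1.79 ± 0.25 in I1 (limma adjusted p = 0.0766), and without overlap on any array. Mafg, a small MAF partner of NRF2, read 9.77 and 11.13 in M1, 10.79 and 10.65 in I1 and 12.00 and 11.96 in BL185. Bach1, a repressor that competes for the same elements at Hmox1, read 8.37 and 10.03 in M1, 9.67 and 9.78 in I1 and 10.87 and 10.69 in BL185. All 3 were lower on every selected-line array. Without M1 replicate 1, 0 of the 12 were called higher and 6 lower in M1, and 1 higher and 8 lower in I1, against 11.7% higher and 12.3% lower of all genes in M1 and 22.5% and 24.1% in I1.

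Of the 14 genes for cysteine supply and glutathione turnover, 10 had a lower mean in M1 and 9 in I1, with no call. Cth, cystathionine gamma-lyase, which makes cysteine from cystathionine, read 7.37 and 9.62 in M1, 9.11 and 9.40 in I1 and 12.99 and 12.99 in BL185. Its differences of -4.50 ± 0.72 in M1 (limma adjusted p = 0.0717; -3.37 and called without M1 replicate 1) and -3.74 ± 0.72 in I1 (limma adjusted p = 0.133) were the widest among the 98 genes, although neither passed. Slc7a11, the cystine carrier, read 7.96 and 8.41 in M1, 7.96 and 8.08 in I1 and 9.35 and 9.26 in BL185. Chac1, which degrades glutathione, read 10.89 and 11.92 in M1, 11.67 and 11.75 in I1 and 12.93 and 13.01 in BL185. Both lay below the parental arrays on all 4 selected-line arrays. Oplah, which returns 5-oxoproline to glutamate, differed by -1.58 in M1 and -1.57 in I1. Of the 14 genes of this list, 0 were called higher and 7 lower in M1 without M1 replicate 1, and 2 higher and 7 lower in I1, beside the same shares of all genes.

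Genes that read higher were spread over several roles. Txnip, which binds and blocks thioredoxin, read 9.08 and 9.56 in M1, 10.57 and 10.83 in I1 and 9.06 and 9.03 in BL185, a difference of 1.66 ± 0.23 in I1 (limma adjusted p = 0.0735). Tfrc, the transferrin receptor, read 12.76 and 13.23 in M1, 13.02 and 13.23 in I1 and 11.93 and 11.85 in BL185. Idh1, a cytosolic source of NADPH, read 12.15 and 13.13 in M1, 13.61 and 13.90 in I1 and 12.32 and 12.33 in BL185. Txnip and Idh1 were thus highest in I1, whereas Tfrc was higher in both selected lines. Gpx8 read 9.33 and 10.69 in M1, 10.14 and 10.48 in I1 and 9.10 and 8.95 in BL185. Glrx, glutaredoxin, read 8.96 and 9.97 in M1, 10.13 and 10.33 in I1 and 9.14 and 9.04 in BL185. H6pd, the hexose-6-phosphate dehydrogenase of the endoplasmic reticulum, read 10.69 and 11.84 in M1, 11.86 and 12.02 in I1 and 10.87 and 10.69 in BL185. The M1 differences of these 3 genes rested on replicate 2: they were 0.99 for Gpx8, 0.38 for Glrx and 0.49 for H6pd with both arrays, and 1.66, 0.88 and 1.06, each called, without replicate 1. Of the other named genes, Abcc2, Aldh1a1, Akr1c13, Sesn2, Aifm2, Gstm6, Mthfd2, Tigar, Blvrb and Slc40a1 were lower in the mean of both lines and Blvra and Msrb3 higher, none of them called with all arrays.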

How the data were processed

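The deposited log2 values, 1 for each probe set on each array, were made with RMA and affy, which the submitters' processing notes name; versions and settings are not given in those notes. The array number limits precision. Of 45101 probe sets, 34945 named 1 gene, 34741 matched a RefSeq table (GRCm38.p6) by Entrez identifier, and 18193 genes remained after the brightest probe set was kept. All 6 arrays entered 1 model with a mean for each line, in limma 3.58.1 (R 4.3.3) (3 residual and 2.27 prior degrees of freedom). p-values had Benjamini-Hochberg adjustment over all genes within each of 3 contrasts and a threshold of 0.05. Errors are SEs of that fit. Members and lists were chosen with earlier results of these data known. Values by array were given for Nfe2l2, Keap1, 7 common NRF2 targets and members called at 2-fold with or without M1 replicate 1. They were also given for the 5 widest differences per direction and contrast, among members whose higher line mean was at least 8. Up to 4 genes per further list were named, called ones first, then the widest differences called without M1 replicate 1. The labels do not say whether replicate numbers pair arrays across lines. Replicate differences correlated at 0.37 (M1 and I1), -0.13 (M1 and BL185) and 0.16 (I1 and BL185), which cannot decide it with 1 difference per line. Alternatives included averaged probe sets, a minimum mean of 8, quantile and cyclic loess normalization, the 18S control as covariate, array weights and each array left out. Python 3.11.15 read promoters and matplotlib 3.10.9 drew figures. The fit was tested on simulated data.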

Additional observations from a re-analysis of the deposited data

Results flagged for a closer look

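Keap1 lay on opposite sides of BL185 on its brightest probe set: both I1 arrays read above, and both M1 arrays below, both BL185 arrays. The differences from BL185 were small in I1 (0.11) and -0.62 in M1 (-0.13 without M1 replicate 1), and neither was called with all arrays. The direct difference, I1 minus M1, was 0.73 log2 units and did not pass limma's test (adjusted p = 1). Without M1 replicate 1 the difference was 0.24, and after quantile normalization of all arrays it was 0.50. The second Keap1 probe set read -1.05 in both lines.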

How the results depend on the processing

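Genes called in M1 minus BL185 (160) became 338 with averaged probe sets, 1831 with cyclic loess, 1176 with quantile normalization, 2446 with the 18S covariate, 312 with array weights, 38 with the replicate block, 0 with only the 4 arrays compared and 502 at an adjusted p of 0.1; leaving out 1 array gave 0 to 12879. Genes called in I1 minus BL185 (93) became 1544 with cyclic loess, 981 with quantile normalization, 3963 with 18S, 8551 with weights, 1 with the block, 8481 with the 4 arrays compared and 291 at 0.1, with 0 to 8481 over left-out arrays. In I1 minus M1 (0) the counts were 1 with a minimum mean of 8, 51 with cyclic loess, 6 with quantile normalization, 534 with 18S, 2 with weights and 6 at 0.1, with 0 to 10365 over left-out arrays.

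Members called in M1 (0) became 2 with averaged probe sets, 1 with a minimum mean of 8, 8 with cyclic loess, 5 with quantile normalization, 10 with 18S, 1 with weights and 2 at 0.1, with 0 to 31 over left-out arrays. In I1 (0) they became 10 with cyclic loess, 9 with quantile normalization, 19 with 18S, 21 with weights, 21 with the 4 arrays compared and 1 at 0.1, with 0 to 21 over left-out arrays. In I1 minus M1 (0) they became 1 with cyclic loess and 6 with 18S, with 0 to 30 over left-out arrays. The replicate block, whose numbers are not known to pair the arrays, called 0 members in each contrast. Share of higher gene calls, for M1 and I1, was 46.3% and 49.5% with cyclic loess and 67.7% and 69.6% with 18S.

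The member median was 0.14 in M1 with 18S and -0.53 to -0.06 over left-out arrays. In I1 it was -0.04 with averaged probe sets, 0.32 with 18S and 0.04 to 0.08 over left-out arrays. In I1 minus M1 it was 0.10 to 0.68 over left-out arrays. Among the single-gene values of the named genes, 7 changed sign with a call under the alternative, and 87 more changed sign with no call on either side. Of the 7, over left-out arrays, I1 minus M1 ranged from -0.46 to 0.43 for Gsr, -0.50 to 0.53 for Oplah, -0.70 to 0.51 for Gpx2, -0.49 to 0.71 for Abcc4 and -0.63 to 0.82 for Tigar, and M1 minus BL185 from -0.44 to 0.95 for Msrb3, in each case between the 2 settings that leave out an M1 array, and I1 minus BL185 gave 0.66 for Srxn1 with 18S. The cause was not tested. No detection calls were used, so dim members such as Nqo1, Gpx3 and Gsta2 cannot be told from background.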

Other observations

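Probe sets shared with a relative were left out of every comparison above. The 5 that name Prdx1 together with Gm21399 read 12.11 to 14.84 over all arrays, and the first of them read 14.47 and 14.75 in M1, 14.61 and 14.73 in I1 and 14.42 and 14.46 in BL185. The set that names Gsta1, Gsta2 and Gm3776 together read 9.88 and 9.87 in M1, 11.68 and 11.78 in I1 and 10.76 and 10.47 in BL185. Both I1 arrays lay above BL185 there, whereas on the probe set that names Gsta2 alone they lay below it.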
